A study of Mus musculus with 9 samples.

Results

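The genes of fatty acid and cholesterol synthesis were read as a list of 36 names, 16 in a fatty acid arm and 20 in a sterol arm. A gene entered when a probe set carried its symbol and no other, and its probe set with the highest mean stood for it. That rule found 34 of the 36, 15 in the fatty acid arm and 19 in the sterol arm, among 22180 genes so named. Scd2 and Idi1 had only probe sets that list several symbols and were not measured here. All 34 also passed the filter on low values that left 17478 genes for testing, so none was lost to it.

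The values came from frozen mammary tissue of 9 female FVB mice, 1 array each, in 3 groups of 3. Normal glands came from littermates without the transgene (labelled wild-type Wnt1), collected at 533, 556 and 538 days of age. Tumours came from Wnt1+/- mice of the MMTV-Wnt1 line, in which a mouse mammary tumour virus promoter drives Wnt1 in mammary epithelium. They were removed at 20 mm. The 3 labelled non-metastatic had their onset at 306, 192 and 247 days and were taken at 354, 222 and 298 days, and the 3 labelled metastatic had their onset at 251, 194 and 242 days and were taken at 300, 281 and 284 days. All mice of all groups drank 6% sucrose with 200 ug/ml doxycycline from 6 weeks of age, so the controls carry that treatment as well. Every normal gland was older than every tumour-bearing mouse, so age and tumour status cannot be told apart. A whole gland also holds fat and vessels, and in bulk RNA fewer cells of a type and less RNA per cell cannot be told apart.

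As background, new fatty acids are built from citrate that leaves the mitochondrion and is split to acetyl-CoA, which acetyl-CoA carboxylase and fatty acid synthase turn into palmitate. Cholesterol is built from the same acetyl-CoA through mevalonate, squalene and lanosterol. The transcription factor SREBP-1c mainly serves the fatty acid genes and SREBP-2 the sterol genes, ChREBP (the product of Mlxipl) responds to sugar, and INSIG proteins hold SREBP precursors in the endoplasmic reticulum when sterols are plentiful. In the mammary gland this chemistry runs in adipocytes and, in lactation, in the secretory epithelium that makes milk fat.

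Both tumour groups had lower levels of most fatty acid genes than the normal glands, while most sterol genes did not pass the test. In non-metastatic tumours 10 of 15 fatty acid members were lower and none was higher (limma, Benjamini-Hochberg adjusted p under 0.05), beside 7.6% of all genes tested that were lower and 11.2% that were higher. In metastatic tumours 11 of 15 were lower and none was higher, beside 6% and 7.35% of all genes. In the sterol arm 4 of 19 were lower and none higher in each tumour group. The median log2 change of the fatty acid arm was -1.70 in non-metastatic and -2.33 in metastatic tumours, that of the sterol arm 0.09 and -0.43, and that of all genes 0.05 and 0.04. The sterol value of 0.09 was -0.09 without non-metastatic tumour 1, and 0.02 or less without non-metastatic tumour 2 or 3 or normal gland 1 or 3. Both comparisons use the same 3 normal glands and are given side by side for that reason.

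Another scaling of the arrays moved the split over all genes more than the members. Of the 29 member results past the threshold, 1 lost its call with each array centred on its median and none with quantile normalisation. Hmgcs1 of the sterol arm gained a lower call in both tumour groups with quantile normalisation. When each array was centred on its median, 2900 genes were higher and 1078 lower in non-metastatic tumours, against 1959 and 1329 as deposited. In metastatic tumours the split was 1728 and 848, against 1284 and 1048. Normal gland 2 stood apart: its score, in which each gene of a list is centred across the arrays and the list is averaged, was 4.11 for differentiated epidermis markers and 3.15 for skeletal muscle markers. Normal glands 1 and 3 had -0.75 and -0.73 for epidermis and -0.65 and -0.39 for muscle. Its luminal epithelial score was -1.78, against -0.40 and -0.16. Without it, 9 fatty acid and 3 sterol members were lower in non-metastatic tumours, and 8 and 4 in metastatic tumours. The share of all genes called without that gland was not recorded, so a general loss of calls cannot be told apart.

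**Figure D1:**
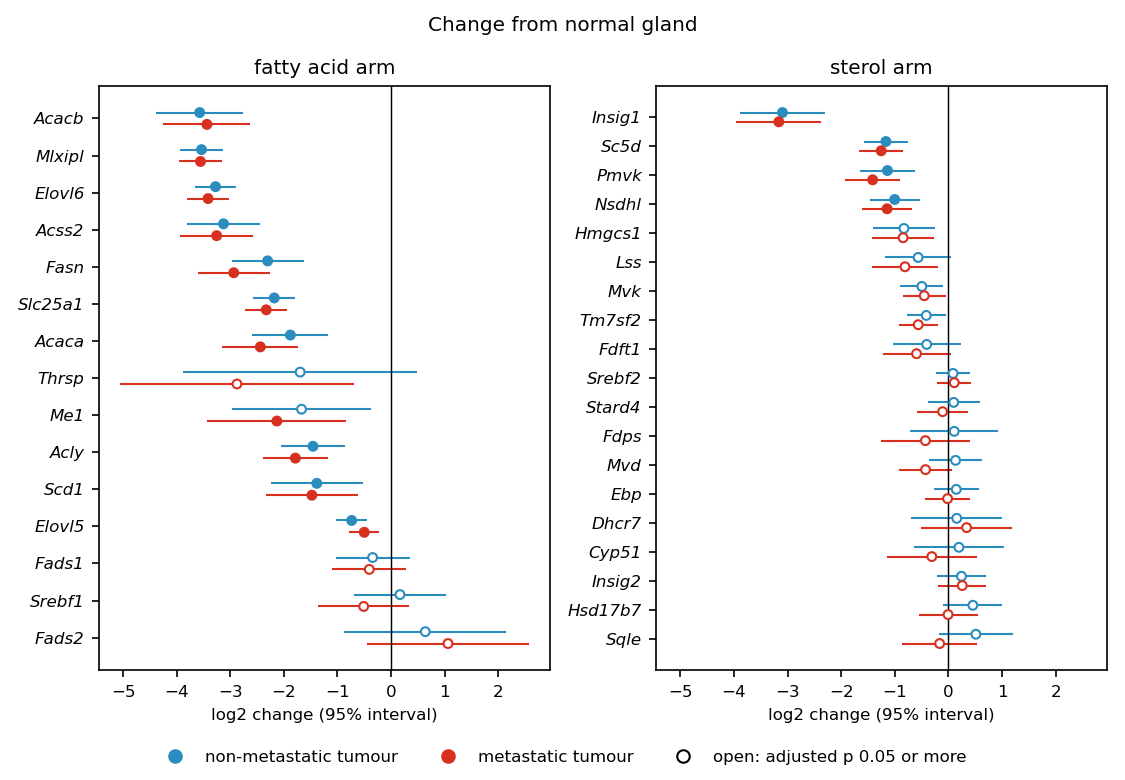
Log2 change of each of the 34 measured genes in non-metastatic and in metastatic tumours against normal gland, with the 95% confidence interval from limma (line). Filled points are past the threshold and open points are not. The fatty acid genes reach -3.57 (Acacb) and the sterol arm has 1 gene beyond -3 (Insig1, -3.10).

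Genes that supply carbon and reducing power were lower in tumours, 3 of 4 in non-metastatic and 4 of 4 in metastatic tumours. Slc25a1, the carrier that exports citrate from the mitochondrion, stood at 11.59, 11.73 and 11.65 log2 units in the normal glands, 9.74, 9.17 and 9.54 in non-metastatic and 9.56, 9.34 and 9.09 in metastatic tumours. All 6 tumours lay below all 3 normal glands, by 2.18 (SE 0.17, adjusted p = 0.00073) and 2.33 (adjusted p = 0.00048) on average. Acss2, which makes acetyl-CoA from acetate, stood at 10.77, 10.77 and 10.90 in normal glands, 8.29, 7.60 and 7.17 in non-metastatic and 7.99, 7.54 and 7.13 in metastatic tumours. It was 8.74-fold lower in non-metastatic tumours (log2 change -3.13, SE 0.30, adjusted p = 0.0016) and 9.54-fold lower in metastatic tumours (adjusted p = 0.0015). Acly, which splits cytosolic citrate, fell by 1.46 (adjusted p = 0.012) and 1.79 (adjusted p = 0.0087) without overlap between tumours and normal glands. Me1, the malic enzyme that yields NADPH, lay between 11.90 and 12.08 in normal glands and between 8.51 and 10.90 in the 6 tumours. Its change of -1.67 in non-metastatic tumours did not pass (adjusted p = 0.073), although no tumour reached a normal gland, and its fall of 2.13 in metastatic tumours did (adjusted p = 0.044).

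All 3 enzymes of chain building fell in both tumour groups. Fasn, fatty acid synthase, stood at 13.30, 13.47 and 13.38 in the normal glands, 11.62, 11.13 and 10.48 in non-metastatic and 10.76, 10.01 and 10.56 in metastatic tumours. The normal glands kept within 0.17 of each other while the tumours spread over 1.61, and the groups of tumours overlapped. Fasn was 4.94-fold lower in non-metastatic tumours (SE 0.29 on the log2 scale, adjusted p = 0.0045) and 7.65-fold lower in metastatic tumours (adjusted p = 0.0021). Acaca, the cytosolic acetyl-CoA carboxylase that commits carbon to fatty acids, fell by 1.88 (adjusted p = 0.0092) and 2.44 (adjusted p = 0.0051). Acacb, the mitochondrial carboxylase whose product restrains fatty acid oxidation, stood at 9.61, 10.53 and 9.88 in normal glands, 6.14, 7.07 and 6.09 in non-metastatic and 7.08, 6.35 and 6.27 in metastatic tumours. Its estimate was the largest of the 34 genes in non-metastatic tumours, 11.9-fold lower (adjusted p = 0.0018), and it was 10.8-fold lower in metastatic tumours (adjusted p = 0.0024).

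The genes that lengthen and desaturate fatty acids split. Elovl6, the elongase that takes palmitate to stearate, stood at 12.58, 12.62 and 12.67 in normal glands, 9.64, 9.03 and 9.39 in non-metastatic and 9.26, 8.98 and 9.39 in metastatic tumours. It was 9.69-fold lower in non-metastatic (adjusted p = 8.6e-05) and 10.7-fold lower in metastatic tumours (adjusted p = 7.9e-05), and the highest tumour (9.64) lay far below the lowest normal gland (12.58). Elovl5, an elongase of polyunsaturated fatty acids, fell by 0.74 (adjusted p = 0.0098) and 0.50 (adjusted p = 0.036). Scd1, the stearoyl-CoA desaturase, lay between 13.50 and 13.62 in normal glands and between 11.33 and 12.62 in tumours, and fell by 1.39 (adjusted p = 0.038) and 1.48 (adjusted p = 0.039). Leaving out any 1 of the 3 normal glands ended the calls of Scd1, and those of Elovl5 and Me1 in metastatic tumours, with adjusted p up to 0.11 for Scd1 and Me1 and 0.098 for Elovl5 over all alternatives. The desaturases of polyunsaturated fatty acids did not pass: Fads1 changed by -0.34 (adjusted p = 0.46) and -0.41 (adjusted p = 0.40). Fads2 stood at 11.20, 9.17 and 11.83 in normal glands, 10.81, 11.03 and 12.27 in non-metastatic and 11.63, 11.69 and 12.07 in metastatic tumours. The low value of normal gland 2 set its mean change: 0.64 and 1.06 with that gland, and -0.14 and 0.28 without it, none of them past the threshold.

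The regulators of the arm did not move together. Mlxipl stood at 10.32, 10.51 and 10.13 in normal glands, 7.01, 6.52 and 6.82 in non-metastatic and 6.69, 6.59 and 7.01 in metastatic tumours. It was 11.6-fold and 11.8-fold lower, with the smallest adjusted p of the list in non-metastatic tumours (6.7e-05) and, with Elovl6, in metastatic tumours (7.9e-05). Srebf1, which encodes SREBP-1, overlapped between all groups, at 9.84, 9.36 and 10.37 in normal glands, 10.23, 10.36 and 9.47 in non-metastatic and 9.59, 8.70 and 9.74 in metastatic tumours. Its changes of 0.17 (adjusted p = 0.79) and -0.51 (adjusted p = 0.39) did not pass. The array reads total message of Srebf1 in 1 probe set, so its transcript forms were not told apart, nor was cleavage of the protein. Thrsp, the lipogenic nuclear protein Spot 14, stood at 12.50, 12.59 and 12.54 in normal glands, 11.66, 11.68 and 9.20 in non-metastatic and 11.52, 7.80 and 9.68 in metastatic tumours. It had the widest range over the tumours of all 34 genes, 3.88 log2 units against 0.09 in the normal glands, and its changes of -1.70 (adjusted p = 0.25) and -2.88 (adjusted p = 0.083) did not pass although every tumour lay below every normal gland.

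**Figure D2:**
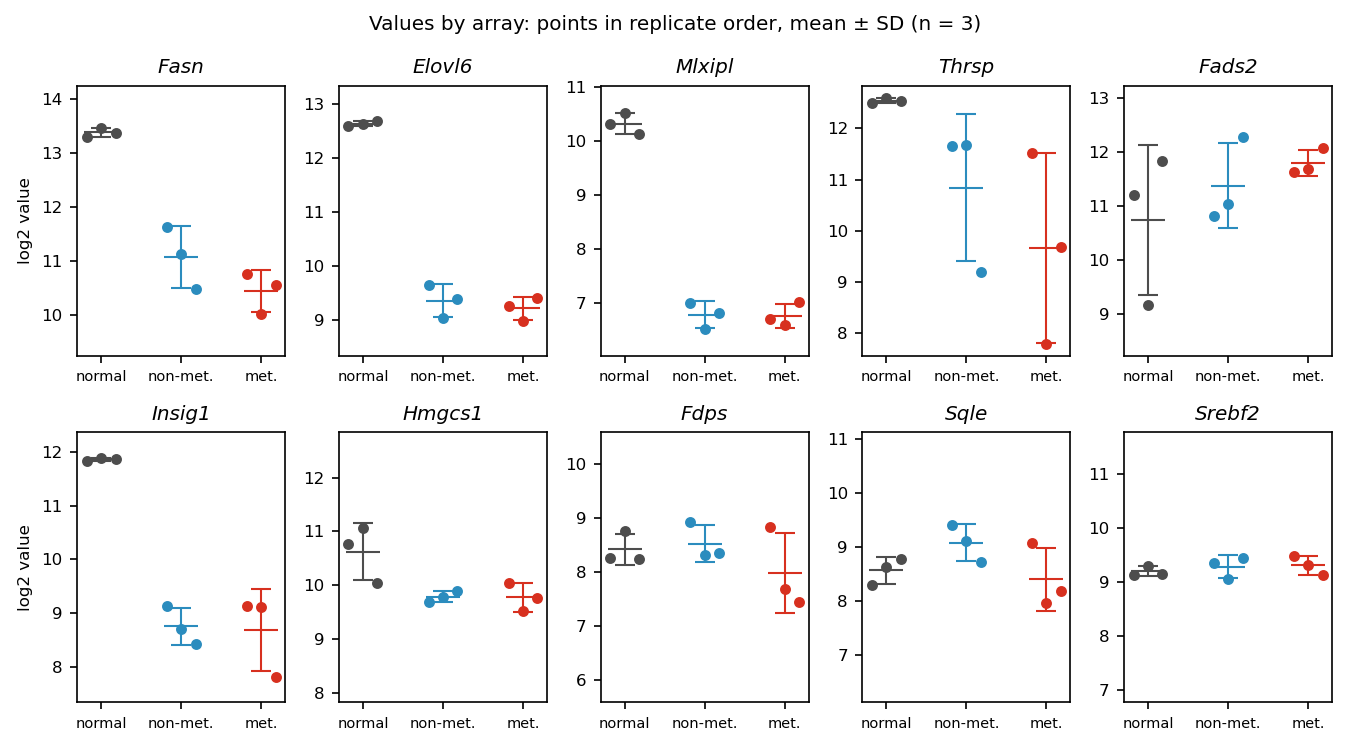
Log2 value on each of the 9 arrays for the genes named in the panels, by group, as points in replicate order with mean and SD (n = 3). Elovl6 and Insig1 separate tumours from normal glands, while Srebf2 overlaps in all 3 groups.

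In the sterol arm, early steps gave 1 call. Pmvk, phosphomevalonate kinase, stood at 9.16, 9.77 and 9.44 in normal glands, 8.53, 8.26 and 8.16 in non-metastatic and 8.46, 7.76 and 7.90 in metastatic tumours, and fell by 1.14 (adjusted p = 0.015) and 1.41 (adjusted p = 0.010). Hmgcs1, which makes the HMG-CoA from which mevalonate is formed, stood at 10.76, 11.07 and 10.04 in normal glands and between 9.53 and 10.05 in the tumours. The value of normal gland 3 lay inside that tumour range, and the changes of -0.83 (adjusted p = 0.055) and -0.85 (adjusted p = 0.062) did not pass. Both were close to the threshold. They passed with quantile normalisation (-0.94 in each tumour group) and with array weights (-0.95 and -0.94). Mvk, mevalonate kinase, changed by -0.50 and -0.45 and Mvd, mevalonate diphosphate decarboxylase, by 0.13 and -0.43, none past the threshold. Fdps, farnesyl diphosphate synthase, changed by 0.11 and -0.43.

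None of the squalene genes passed. Fdft1, squalene synthase, changed by -0.41 and -0.59. Sqle, squalene epoxidase, stood at 8.29, 8.64 and 8.78 in normal glands, 9.40, 9.12 and 8.72 in non-metastatic and 9.07, 7.97 and 8.18 in metastatic tumours, changes of 0.51 (adjusted p = 0.27) and -0.16. Lss, lanosterol synthase, changed by -0.56 (adjusted p = 0.18) and -0.81 (adjusted p = 0.084), with all 6 tumours below the normal glands.

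Of the 7 genes that turn lanosterol into cholesterol, the same 2 fell in both groups. Sc5d, the sterol C5 desaturase, stood at 10.93, 10.80 and 10.47 in normal glands, 9.58, 9.69 and 9.42 in non-metastatic and 9.66, 9.14 and 9.62 in metastatic tumours, and fell by 1.17 (adjusted p = 0.0078) and 1.26 (adjusted p = 0.0077). Nsdhl, a sterol dehydrogenase of C4 demethylation, fell by 1.00 (adjusted p = 0.016) and 1.14 (adjusted p = 0.014), calls that ended without normal gland 1, normal gland 2 or non-metastatic tumour 2 (adjusted p up to 0.053) in the former group and without metastatic tumour 3 (adjusted p = 0.054) in the latter. The other 5 did not pass. Tm7sf2, a sterol C14 reductase, changed by -0.41 (adjusted p = 0.11) and -0.56 (adjusted p = 0.053), with all 6 tumours below the normal glands. Its change in metastatic tumours passed with array weights (-0.38) and with a filter at the 50th percentile (-0.56). Cyp51, the lanosterol demethylase, changed by 0.20 and -0.31, and Hsd17b7, the ketosteroid reductase of C4 demethylation, by 0.46 and -0.01. Ebp, the sterol isomerase, changed by 0.15 and -0.02, and Dhcr7, the last reductase of the pathway, by 0.16 and 0.34.

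Of the 4 sterol regulators, Insig1 alone fell. It stood at 11.82, 11.88 and 11.87 in normal glands, 9.13, 8.71 and 8.44 in non-metastatic and 9.14, 9.12 and 7.82 in metastatic tumours. It was 8.55-fold lower in non-metastatic (SE 0.35 on the log2 scale, adjusted p = 0.0031) and 8.96-fold lower in metastatic tumours (adjusted p = 0.0031). Its relative Insig2 did not pass, with changes of 0.24 and 0.26 (adjusted p = 0.42 for both). Srebf2, which encodes SREBP-2, lay between 9.05 and 9.48 on all 9 arrays, and its changes were 0.09 (95% interval -0.23 to 0.41) and 0.11 (-0.21 to 0.43). Stard4, a carrier of cholesterol between membranes, changed by 0.10 and -0.11.

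**Figure D3:**
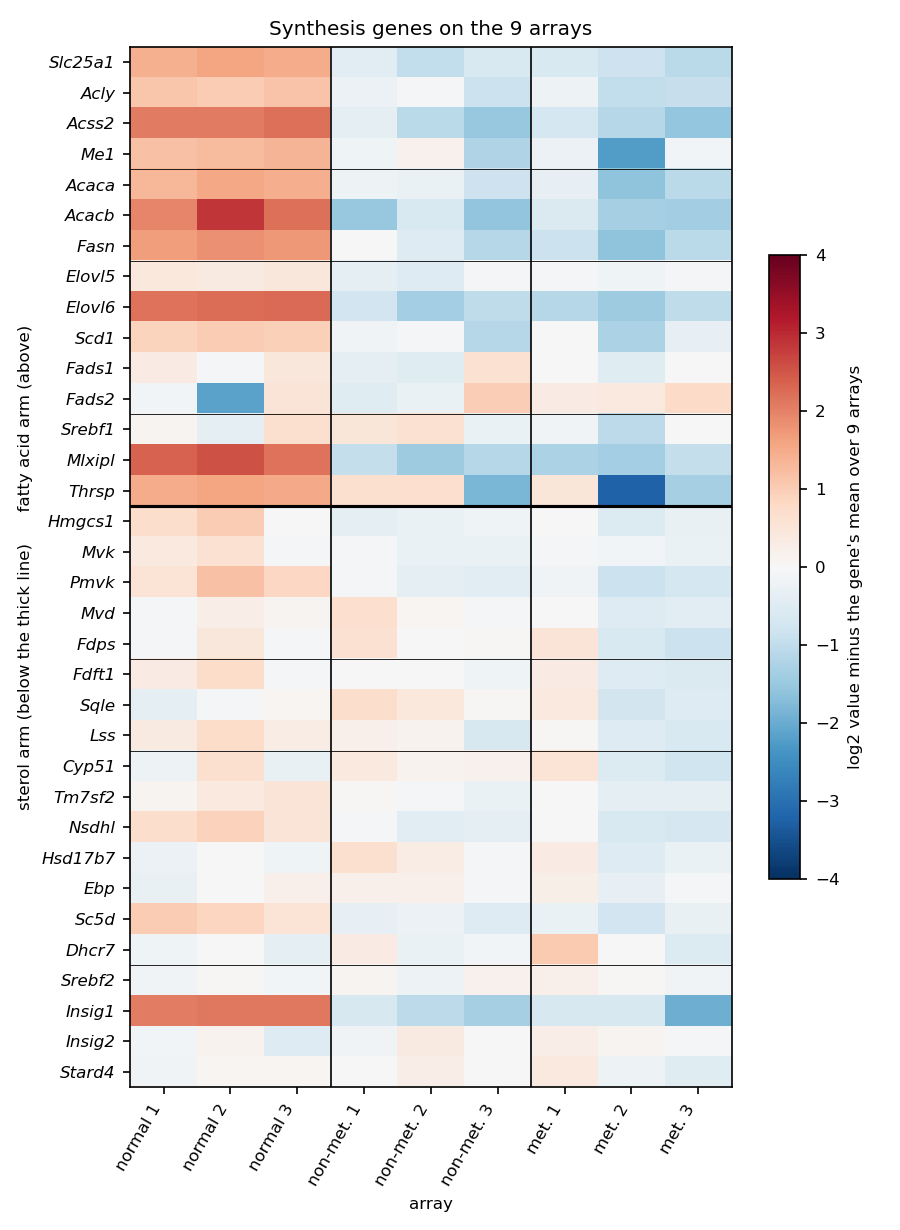
Centred log2 values, each gene relative to its own average, for all 34 genes (rows, by arm and role) on the 9 arrays (columns, by group). All 6 tumours lie below all 3 normal glands in 12 of 15 fatty acid rows and in 6 of 19 sterol rows.

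The promoters of 4 genes are shown: Fasn, Mlxipl and Insig1, which fell, and Hmgcs1, whose lower mean values in tumours fell just short of the threshold. From RefSeq on GRCm38.p6, 28 of the 34 measured genes had a window, and the 250 bases before the start were searched on both strands for the SREBP site TCACNCCAC, the E-box CACGTG, the NF-Y box CCAAT and the Sp1 box GGGCGG. No motif contains another, and capitals below mark the NF-Y box and the SREBP site on either strand. The windows are Fasn at chr11:120824548-120824797 on the minus strand, the Mlxipl window with an SREBP site at chr5:135106641-135106890, Insig1 at chr5:28071162-28071411 and Hmgcs1 at chr13:119690101-119690350, these 3 on the plus strand.
Fasn: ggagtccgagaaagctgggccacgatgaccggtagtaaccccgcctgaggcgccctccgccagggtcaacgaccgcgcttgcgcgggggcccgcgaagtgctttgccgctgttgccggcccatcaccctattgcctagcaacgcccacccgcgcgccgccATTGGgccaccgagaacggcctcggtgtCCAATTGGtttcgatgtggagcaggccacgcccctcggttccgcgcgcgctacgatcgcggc
Mlxipl: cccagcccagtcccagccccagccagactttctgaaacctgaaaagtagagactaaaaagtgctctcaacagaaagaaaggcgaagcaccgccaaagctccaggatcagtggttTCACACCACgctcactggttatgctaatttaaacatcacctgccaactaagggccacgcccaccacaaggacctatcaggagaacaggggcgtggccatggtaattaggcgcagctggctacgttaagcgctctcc
Insig1: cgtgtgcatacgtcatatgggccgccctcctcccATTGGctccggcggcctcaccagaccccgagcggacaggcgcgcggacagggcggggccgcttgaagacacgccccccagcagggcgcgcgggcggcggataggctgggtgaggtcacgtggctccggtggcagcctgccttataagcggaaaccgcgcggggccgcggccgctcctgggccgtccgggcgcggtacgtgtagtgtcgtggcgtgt
Hmgcs1: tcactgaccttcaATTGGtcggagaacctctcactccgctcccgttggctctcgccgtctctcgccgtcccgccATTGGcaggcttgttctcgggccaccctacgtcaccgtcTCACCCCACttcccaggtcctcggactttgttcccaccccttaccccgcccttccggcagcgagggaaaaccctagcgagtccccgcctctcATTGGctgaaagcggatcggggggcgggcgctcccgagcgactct
The windows shown of Fasn, Insig1 and Hmgcs1 hold an NF-Y box, and that of Mlxipl holds none. Those of Fasn and Insig1 hold no exact match to TCACNCCAC. Sites that differ from these letters or lie outside the 250 bases were not searched for. Mlxipl has another window, at chr5:135089640-135089889, which holds an NF-Y box and an E-box but no SREBP site. The counts over genes below include it. The NF-Y box was in the windows of 15 of 15 sterol genes and 9 of 13 fatty acid genes, counted over genes, and in 39.5% of protein-coding genes. The SREBP site was in 1 sterol gene (Hmgcs1) and 1 fatty acid gene (Mlxipl), beside 1.20% of protein-coding genes. The Sp1 box was in 14 of 15 sterol and 7 of 13 fatty acid genes, beside 45.8% of protein-coding genes, so that the fatty acid share lay near the background. The E-box was in 4 and 3 genes, beside 7.61%. These matches describe the letters of the windows only.

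The fatty acid arm stood further below the normal glands than the sterol arm. The gap between the arm medians (fatty acid minus sterol) was -1.78 in non-metastatic and -1.90 in metastatic tumours, and with enzymes alone, without regulators and carriers, the gap in non-metastatic tumours was -1.27, the sterol median there being -0.41 in place of 0.09. These gaps were not tested. On each array, the fatty acid score was 1.23, 1.16 and 1.37 in normal glands, -0.33, -0.41 and -0.78 in non-metastatic and -0.35, -1.22 and -0.67 in metastatic tumours. The sterol score was 0.23, 0.53 and 0.19, then 0.12, -0.06 and -0.21, then 0.17, -0.43 and -0.52, so that the lowest normal gland (0.19) lay just above the highest tumour (0.17). All 6 tumours lay below all 3 normal glands for 12 of 15 fatty acid and 6 of 19 sterol genes, beside 10.3% of all genes. No member had all 6 tumours above the normal glands, beside 15.7% of all genes. Without normal gland 2 the counts below were again 12 and 6, beside 12.6% of all genes.

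**Figure D4:**
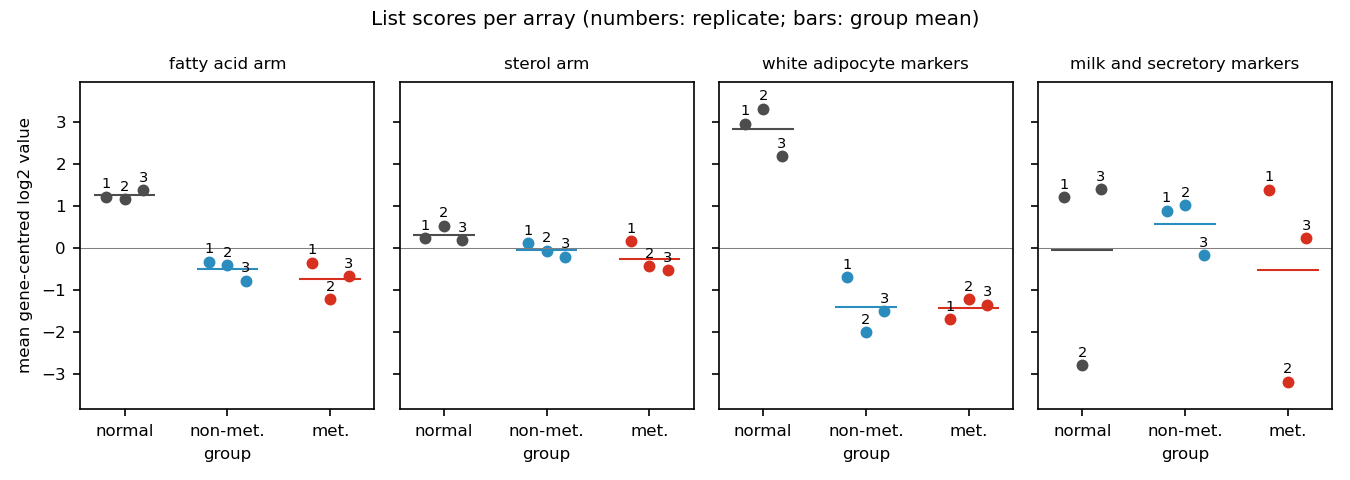
Score of each list on each array (mean of centred log2 values), with points numbered by replicate and a bar at the group mean. White adipocyte markers and the fatty acid arm are high in the 3 normal glands, and the milk and secretory markers are low in normal gland 2 and metastatic tumour 2.

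Markers of several cell types differed beside the fatty acid arm. All 17 measured white adipocyte markers of 19 listed were lower in both tumour groups, with a median change of -4.63 and -4.91. Their score lay between 2.19 and 3.32 in normal glands, between -2.01 and -0.69 in non-metastatic and between -1.70 and -1.22 in metastatic tumours. Adipoq, the adipocyte hormone adiponectin, fell by 5.08 (adjusted p = 0.0026) and 5.31 (adjusted p = 0.0024). Of 6 brown fat markers 4 were lower in each tumour group, 3 of them (Ucp1, Cox7a1 and Cox8b) in both, with Ucp1 changed by -6.59 and -6.94. Luminal epithelial markers went the other way, 4 of 10 being higher in non-metastatic and 3 in metastatic tumours. Of 7 cell division genes, 7 and 5 were higher. Among all genes tested, 11.2% and 7.35% were higher. Of 5 endothelial markers 3 and 2 were lower. Of 6 fibroblast markers 1 (Dcn) was lower in non-metastatic and none in metastatic tumours, with medians of -2.13 and -1.31. Lower calls made up 7.6% and 6% of all genes tested, so the counts of fibroblast calls lay near those shares. Yet all 6 fibroblast changes were negative in both tumour groups. In non-metastatic tumours 3 of the 6 lay below all normal glands, beside 2498 of 17478 genes tested. In metastatic tumours all 6 did, beside 2673 genes. The part of any of these cell types in the fall of the fatty acid genes was not tested. The milk and secretory score was 1.22, -2.79 and 1.40 in normal glands, 0.89, 1.03 and -0.18 in non-metastatic and 1.39, -3.19 and 0.24 in metastatic tumours. Metastatic tumour 2, the lowest of these, was the lowest of the 6 tumours for 8 of 15 fatty acid genes, beside 24.0% of all genes. Thrsp, Me1 and Acaca were among the 8. Normal gland 2, the next lowest, was the highest normal gland for 7 of 15 fatty acid genes and the lowest for 5. For all genes these shares were 34.4% and 38.7%. That gland stood at 12.59 for Thrsp, 12.05 for Acaca and 12.01 for Me1. The 3 normal glands differed little for these genes, spreading over 0.09, 0.24 and 0.18 log2 units. The part of secretory cells in those values was not tested.

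The other genes of both pathways were also read from lists. Of 29 measured genes of fatty acid and glyceride metabolism outside the list, 11 were lower and none higher in non-metastatic tumours, and 12 lower and none higher in metastatic tumours, with medians of -0.62 and -0.85. Elovl3, an elongase of very long chains, changed by -6.10 and -6.24, and Dgat2, which completes triglycerides, by -4.93 and -4.95. Agpat2, which makes phosphatidic acid, changed by -3.38 and -3.34, and Pcx, pyruvate carboxylase, by -3.29 and -3.31. Of 16 measured other sterol genes, 3 were higher and 2 lower in non-metastatic and 2 higher and 3 lower in metastatic tumours. The shares of all genes tested with a higher call were 11.2% for non-metastatic and 7.35% for metastatic tumours. Those with a lower call were 7.6% and 6%. Whether the counts of either list exceed these shares was not tested. Mbtps2, the protease that completes SREBP cleavage, rose by 0.82 and 0.69. Abcg1, a sterol exporter, rose by 0.45 and 0.59. Aacs, which activates acetoacetate, changed by -2.14 and -2.46, and Cyp27a1, the mitochondrial sterol hydroxylase, by -1.72 and -1.70. All of these were past the threshold.

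Metastatic and non-metastatic tumours were compared directly, the question in the study's title. None of the 34 genes passed (limma, lowest adjusted p = 0.88), beside 0.00572% of all genes, which is 1 gene. Mvd alone was under 0.05 before adjustment (change -0.56), beside 5.07% of all genes. No member's 6 tumours separated by metastatic status, beside 4.41% of genes with all metastatic tumours higher and 5.84% lower. The median change was -0.14 in the fatty acid arm and -0.16 in the sterol arm, beside -0.02 over all genes. Leaving out 1 array moved the former between -0.39 (without non-metastatic tumour 3) and -0.02 (without non-metastatic tumour 1), and the latter between -0.35 (without metastatic tumour 1) and -0.08 (without metastatic tumour 2). With 3 tumours a group the intervals were wide: Fasn changed by -0.63 (95% interval -1.30 to 0.04), Elovl6 by -0.14 (-0.53 to 0.25), Mlxipl by -0.02 (-0.42 to 0.38) and Thrsp by -1.18 (-3.37 to 1.01). The score of 5 basal and myoepithelial markers lay between 0.82 and 0.91 in metastatic and between -1.78 and 0.19 in non-metastatic tumours, although none of the 5 passed the test and the tumour groups overlapped for Krt14 and Trp63. Their part in these values was not tested.

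Within the metastatic group 1 tumour led the sterol genes. Metastatic tumour 1 was the highest of the 3 for 19 of 19 sterol genes, beside 34.6% of all genes, and for 8 of 15 fatty acid genes, with Elovl5 and Fads1 tied with metastatic tumour 3. The lowest was metastatic tumour 2 for 8 sterol genes and metastatic tumour 3 for 11. Fdps, for example, stood at 8.82, 7.68 and 7.44, and Dhcr7 at 10.09, 9.02 and 8.49. Metastatic tumour 2 was the lowest of the 3 for 11 of 15 fatty acid genes, beside 38.7% of all genes. Without metastatic tumour 1 the sterol median against normal gland was -0.69, in place of -0.43. Among the normal glands, gland 2 was the highest for 14 of 19 sterol genes, beside 34.4% of all genes. The mice are separate animals, so these orders are differences between single mice of a group.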

How the data were processed

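Total RNA from 9 frozen mammary tissues was put on Affymetrix Mouse Gene 2.0 ST arrays, 1 per mouse. The deposited values are log2 intensities made with RMA by the authors, per the submitters' processing notes. The RMA version and the genome build are not given in the sources used here. Of 41345 probe sets, 23521 carried 1 gene symbol and 1814 several, and 16010 were not listed. Genes had to exceed the 30th percentile of the array on 3 or more arrays to be tested.

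All 9 arrays entered a linear model of the 3 groups (limma 3.58.1, R 4.3.3, 6 residual degrees of freedom, eBayes). Tests were two-sided, with Benjamini-Hochberg adjustment over the 17478 genes and a threshold of 0.05. The procedure was tested on simulated data. Replicate numbers name different mice and were not taken as pairs. The number of arrays limits the precision. Groups come from the sample titles.

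The members and lists were chosen with earlier results of these data known. All members are named, with up to 4 of the largest changes past the threshold from each context list, Adipoq in every case, and further list scores. Promoters are RefSeq on GRCm38.p6. Protein sequences of paralogues were not analysed here. Alternatives covered scaling, the filter, the fit, array weights, the replicate block and leaving out each array.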

Additional observations from a re-analysis of the deposited data

How the results depend on the processing

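Of 29 member results past the threshold, tried under 19 alternatives each, 512 of 551 values kept their call, 39 lost it and none changed sign. The losses were in Scd1, Elovl5, Me1 and Nsdhl. Of 1421 values of members not past the threshold, 54 changed sign and 19 passed. Hmgcs1 in both tumour groups and Tm7sf2 in metastatic tumours were among those that passed. The count of members past the threshold between the tumour groups was 0 under every alternative run. With array weights 9 sterol members were lower in metastatic tumours in place of 4. Over all genes that setting gave 2733 lower calls in place of 1048, so calls rose in general. At an adjusted p under 0.1 there were 7 lower sterol members, and the share of all genes at that threshold was not recorded. With enzymes alone the gap between the arm medians in non-metastatic tumours was -1.27 and the sterol median -0.41, in place of 0.09. The replicate block left 2250 of 3288 and 1299 of 2332 genes past the threshold and ended 4 of the 29 member calls. Same-numbered arrays had residual correlations between -0.28 and 0.17, so the numbers do not pair the mice.

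Leaving out 1 array at a time, the fatty acid median ranged from -1.99 to -1.27 in non-metastatic and from -2.45 to -1.94 in metastatic tumours. The number of lower fatty acid members ranged from 9 to 11 in non-metastatic and from 8 to 11 in metastatic tumours. That of lower sterol members ranged from 3 to 6 in each tumour group. The shares of all genes called in those fits were not recorded. The gap ranged from -1.98 to -1.28 and from -2.04 to -1.61, and the sterol median from -0.088 to 0.13 in non-metastatic and from -0.69 (without metastatic tumour 1) to -0.30 in metastatic tumours. Between the tumour groups the fatty acid median ranged from -0.39 to -0.022, the sterol median from -0.35 to -0.081 and the gap from -0.15 to 0.072. Among values not past the threshold that changed sign, in non-metastatic tumours Dhcr7 ranged from -0.018 to 0.29, Fads2 from -0.14 to 1.19, Fdps from -0.088 to 0.28, Mvd from -0.085 to 0.27 and Srebf1 from -0.083 to 0.44. In metastatic tumours Dhcr7 ranged from -0.10 to 0.69, Ebp from -0.17 to 0.12, Hsd17b7 from -0.24 to 0.17, Sqle from -0.50 to 0.056 and Stard4 from -0.35 to 0.084. Between the tumour groups Elovl6 ranged from -0.30 to 0.0030 and Mlxipl from -0.15 to 0.093.

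With array weights the change in metastatic tumours was 0.22 for Ebp, 0.084 for Hsd17b7 and 0.071 for Sqle, and that of Mlxipl between the tumour groups was 0.046. With median centring Ebp was at 0.046 and Hsd17b7 at 0.056. With quantile normalisation Hsd17b7 was at 0.031, and Srebf2 in non-metastatic tumours was at -0.024. The cause of these shifts was not tested.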
